A study of Homo sapiens with 4 samples.

Results

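The 29 genes described here encode the semaphorins, plexins and neuropilins of the human autosomes. They were taken by name from the protein-coding autosomal genes of the hg19 annotation (19229 in all): every gene whose symbol begins with SEMA or PLXN, together with NRP1 and NRP2. They comprise 20 semaphorin, 7 plexin and 2 neuropilin genes. A peak was counted at a gene when it overlapped the gene body or the 5 kb on either side.

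Chromatin binding was measured by CUT&RUN, in which an antibody directs a nuclease to a protein and the released DNA is sequenced. The cells were SW-13, an adrenocortical carcinoma line in which BRG1 and BRM, the motor subunits of the SWI/SNF chromatin remodeling complex, are silenced. A single clone carried V5-tagged wild-type BRG1 (iBRG1) and another carried V5-tagged BRG1 from which the HSA domain had been removed (i∆HSA), each with 2 samples. All 4 samples held 300000 cells, received doxycycline for 24 h to switch the transgene on, and were probed with anti-V5, so wild-type and mutant cannot be told apart from clone and clone.

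Semaphorins are guidance cues that repel or attract growing axons, migrating cells and vessel sprouts. Class 3 members are secreted, most of the others are anchored in the membrane, and plexins are the receptors that turn their binding into changes of the actin cytoskeleton. Neuropilins are co-receptors that most class 3 semaphorins need to reach a class A plexin, and they also bind vascular endothelial growth factors.

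The deposited data were 1 peak list per construct, with no column for a replicate, so no value below has a replicate error and no difference between the constructs was tested. The lists held 24212 iBRG1 and 25371 i∆HSA peaks. Each peak carries the authors' whole-number score, whose scale is not stated. Its median was 2 in the iBRG1 list and 4 in the i∆HSA list, so a higher score in i∆HSA than in iBRG1 does not show stronger binding. Scores are printed below as deposited. Ranks were read within a list, as the percent of that list's peaks that score lower.

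Peaks were found at 21 of the 29 genes. The iBRG1 list had 48 peaks at 15 genes (51.7%, where 44.7% of all protein-coding autosomal genes had one) and the i∆HSA list had 37 peaks at 16 genes (55.2%, against 49.5%). Both lists had a peak at 10 genes (34.5%, against 30.4%), namely SEMA3A, SEMA3C, SEMA3D, SEMA3E, SEMA4B, SEMA6D, PLXNA4, PLXNC1, NRP1 and NRP2. The iBRG1 list alone had peaks at 5 genes (PLXNA2, PLXNB2, SEMA4C, SEMA5A and SEMA5B), and the i∆HSA list alone at 6 genes (PLXNB1, SEMA4A, SEMA4F, SEMA4G, SEMA6B and SEMA6C). Among all genes these shares were 14.3% and 19.1%. Neither list had a peak at the remaining 8 genes (27.6%, against 36.2%), namely PLXNA1, PLXND1, SEMA3B, SEMA3F, SEMA3G, SEMA4D, SEMA6A and SEMA7A. The shares of all genes take no account of length, and the median gene of the family was 69.1 kb long beside 27.6 kb for all genes. The order of the lists depended on the score cutoff. With scores of at least 5, the minimum that the study's methods name, 16 iBRG1 and 23 i∆HSA peaks were left, at 6 and 11 genes. This cutoff fell unequally on the lists, as 27.2% of all iBRG1 and 41.1% of all i∆HSA peaks reached it. At or above the median score of each list, 34 iBRG1 and 28 i∆HSA peaks were left, so the order did not turn.

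Long genes hold more peaks, so each gene was set beside the 200 other protein-coding genes nearest to it in length. By the shares of like-length genes with a peak, 17.3 (iBRG1) and 18.4 (i∆HSA) of the 29 genes would have one. The 15 and 16 genes counted were fewer than this, although they were above the shares of all genes. Summed over the 29 genes, the mean number of peaks at these like-length genes came to 46.0 for iBRG1 and 45.7 for i∆HSA. The counts were 1.04 times (iBRG1, 95% Poisson interval 0.769 to 1.38) and 0.809 times (i∆HSA, 0.570 to 1.12) these means, and the intervals, which cover counting error only, both included 1. The peaks were unevenly spread over the members. SEMA3A held 11 iBRG1 and 9 i∆HSA peaks, and leaving it out brought the ratios to 0.888 (iBRG1) and 0.668 (i∆HSA). Without all 4 class 3 semaphorin genes of chromosome 7 the ratios were 0.738 and 0.578. The i∆HSA ratio of 0.809 also turned with the score, to 1.20 among peaks with scores of at least 5 and to 1.10 among those at or above the list median.

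**Figure D1:**
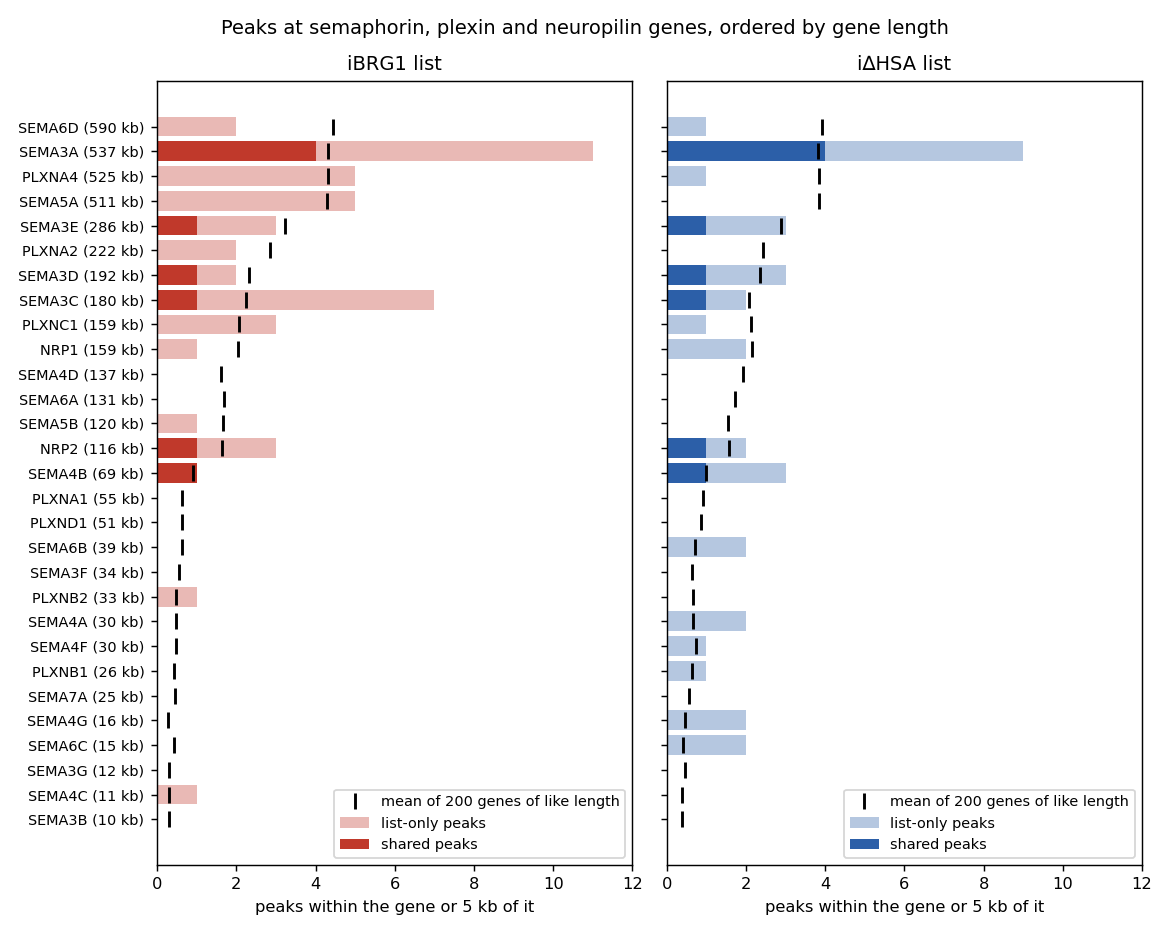
Number of peaks (x axis) at each of the 29 genes, ordered by gene length, in the iBRG1 list (left) and the i∆HSA list (right). Dark bars are peaks shared by the lists, pale bars are peaks of 1 list, and black ticks are the mean of the 200 genes nearest in length. SEMA3A, with 11 and 9 peaks, lies well beyond its ticks at 4.33 and 3.83, and SEMA5A has 5 iBRG1 and 0 i∆HSA peaks.

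The chromosome 7 genes were examined first because they held most of the sites that the constructs had in common. Peaks of the 2 lists that had at least 1 bp in common were counted as shared. Of the 9 shared sites at the family, 7 lay in SEMA3A (4 sites), SEMA3C, SEMA3D and SEMA3E (1 site each). The other 2 lay at SEMA4B and NRP2. These 4 class 3 genes lie along chromosome 7 from 80371854 to 84816372 and encode secreted ligands. Their gene bodies with flanks held 18.6 iBRG1 and 13.8 i∆HSA peaks per Mb, while chromosome 7 held 9.54 and 10.2. Since these genes were singled out after their peaks were seen, the densities are a description. The whole stretch from SEMA3C to SEMA3D, with the sequence between the genes, was closer to the chromosome at 11.9 and 10.1 peaks per Mb.

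The centres of the shared sites are shown so that the sequence both constructs were found on can be read. For 5 of the 6 genes with a shared site, the site with the highest score rank was taken, and the bases within 100 bp of the middle of the stretch common to both peaks are given from the forward strand of GRCh37 (hg19). Capitals mark matches to the 6 patterns searched on both strands, which were AP-1 (TGACTCA or TGAGTCA), TEAD (GGAATG), ETS (CCGGAAG), SP/KLF (GGGCGG), RUNX (TGTGGTT or TGCGGTT) and the NR5A motif.
SEMA3C chr7:80512747-80512947: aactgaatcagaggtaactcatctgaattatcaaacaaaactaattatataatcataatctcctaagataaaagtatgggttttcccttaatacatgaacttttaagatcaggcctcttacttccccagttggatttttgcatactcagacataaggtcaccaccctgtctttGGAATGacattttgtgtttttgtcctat
SEMA3A chr7:83807099-83807299: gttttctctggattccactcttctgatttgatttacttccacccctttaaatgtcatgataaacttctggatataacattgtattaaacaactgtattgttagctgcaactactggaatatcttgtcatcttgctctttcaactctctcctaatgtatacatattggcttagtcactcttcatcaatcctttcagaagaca
SEMA3E chr7:83097844-83098044: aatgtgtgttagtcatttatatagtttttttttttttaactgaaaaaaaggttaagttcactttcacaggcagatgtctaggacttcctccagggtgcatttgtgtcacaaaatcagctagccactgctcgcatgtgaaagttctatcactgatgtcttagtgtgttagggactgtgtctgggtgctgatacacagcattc
SEMA3D chr7:84766144-84766344: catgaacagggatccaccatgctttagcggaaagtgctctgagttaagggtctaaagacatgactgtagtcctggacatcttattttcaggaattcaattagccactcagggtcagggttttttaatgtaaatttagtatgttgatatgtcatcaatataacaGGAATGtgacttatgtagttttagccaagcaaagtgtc
NRP2 chr2:206634086-206634286: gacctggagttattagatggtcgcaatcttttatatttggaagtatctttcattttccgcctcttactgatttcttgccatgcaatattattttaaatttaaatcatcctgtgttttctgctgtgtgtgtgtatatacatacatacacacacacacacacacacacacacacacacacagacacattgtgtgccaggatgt
TEAD matches stood in the SEMA3C and SEMA3D windows, and the SEMA3A, SEMA3E and NRP2 windows held no match. Windows of the same length at the midpoints of all peaks held a TEAD match in 12.2% (iBRG1) and 10.1% (i∆HSA). At the midpoints of all shared peaks the shares were 13.4% and 12.9%. The windows shown differ from both in that they were taken by score rank and centred on the common stretch.

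AP-1 matches, in contrast, were found when the whole common stretch was read. At SEMA3C and NRP2 the match began on the last base of the window shown above, so the window edge cut it off. AP-1 factors are FOS and JUN dimers that bind enhancers, and this look at whole stretches was chosen after the data were seen. All 7 common stretches at the chromosome 7 genes, which were 1140 to 2587 bp long, held at least 1 match, as did the stretch at NRP2, while that at SEMA4B did not. Of the 2591 common stretches of that length in the whole series, 61.1% held one. Moved 5 kb to either side, these 2591 stretches held a match in 22.9% of cases. The 9 stretches of the 29 genes, which include the shorter ones of 338 bp at SEMA4B and 463 bp at NRP2, held one in 4 of 18 cases (22.2%) when moved likewise. The match with 20 bases on either side is given for each site, from the forward strand, with the AP-1 letters in capitals.
NRP2 chr2:206634266-206634312: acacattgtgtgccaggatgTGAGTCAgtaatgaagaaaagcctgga
SEMA3C chr7:80512927-80512973: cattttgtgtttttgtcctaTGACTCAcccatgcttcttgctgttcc
SEMA3E chr7:83097771-83097817: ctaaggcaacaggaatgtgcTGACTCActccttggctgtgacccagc
SEMA3A chr7:83654954-83655000: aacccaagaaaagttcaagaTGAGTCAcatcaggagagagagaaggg
SEMA3A chr7:83718353-83718399: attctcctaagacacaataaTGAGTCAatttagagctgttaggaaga
SEMA3A chr7:83807602-83807648: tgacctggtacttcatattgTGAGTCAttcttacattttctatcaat
SEMA3A chr7:84042097-84042143: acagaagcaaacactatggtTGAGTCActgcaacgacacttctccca
SEMA3A chr7:84042146-84042192: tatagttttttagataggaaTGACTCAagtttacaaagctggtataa
SEMA3D chr7:84767499-84767545: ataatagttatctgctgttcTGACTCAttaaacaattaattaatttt
The SEMA3A match at 83654974 lay 1 bp from the iBRG1 midpoint and 94 bp from the i∆HSA midpoint. At the shared SEMA3A site farthest upstream, 2 matches lay 4 and 45 bp from the i∆HSA midpoint but 571 and 620 bp from the iBRG1 midpoint. The SEMA3D match lay 1895 and 1258 bp from the midpoints, near the edge of the common stretch.

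Whole peaks were read in the same way. Of the 9 shared peaks at the 29 genes, 8 held an AP-1 match in each list (88.9%, 95% Wilson interval 56.5 to 98.0), and this interval included the 60.2% (iBRG1) and 60.5% (i∆HSA) found over all shared peaks. The interval takes the 9 peaks as independent, although 7 of them lie in 4 genes of chromosome 7. Of the list-only peaks at the 29 genes, 18 of 39 in the iBRG1 list (46.2%, 95% Wilson interval 31.6 to 61.4) and 7 of 28 in the i∆HSA list (25.0%, 12.7 to 43.4) held an AP-1 match anywhere in the peak. Among all list-only peaks these shares were 36.3% and 24.2%. Within 100 bp of peak midpoints, AP-1 matches stood at 4 of 48 iBRG1 (8.33%) and 4 of 37 i∆HSA peaks (10.8%) of the family. All peaks of the lists had them in 8.89% and 6.18%. TEAD matches stood there at 4 iBRG1 (8.33%) and 7 i∆HSA peaks (18.9%), where all peaks had 12.2% and 10.1%. A match is a string of letters and does not show that a factor was bound.

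SEMA3A, the archetypal repellent cue that acts through NRP1 and class A plexins, had the most peaks in both lists. Its gene body runs from 83585093 to 84122040 on the minus strand of chromosome 7 and is 537 kb long. Of the 200 genes of like length, 10 had at least 11 iBRG1 peaks and 26 had at least 9 i∆HSA peaks. Only 6 of these 200 had at least 4 shared peaks. Over all protein-coding autosomal genes, 70 (0.364%) had as many iBRG1 peaks as SEMA3A and 100 (0.520%) had as many i∆HSA peaks.

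The 4 shared SEMA3A sites lay far from the start of its canonical transcript. The highest i∆HSA score of the family, 103, belonged to the peak at chr7:83805906-83808865 in intron 1, 16.7 kb downstream of that start, and 99.4% of the i∆HSA list scored lower. Its iBRG1 partner at chr7:83805849-83808492 had a score of 26, with 98.4% of the iBRG1 list lower. In intron 4, 105 kb downstream, the i∆HSA peak scored 66 and the iBRG1 peak scored 12. In intron 6, 169 kb downstream, the scores were 49 and 14. The fourth site lay 218 kb upstream of the canonical start, still inside the annotated gene body, and scored 27 (i∆HSA) and 28 (iBRG1). At all 4 sites, between 91.7% and 99.4% of the list scored lower in both constructs.

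List-only peaks at SEMA3A were also present. The iBRG1 list had 7 of them with scores from 1 to 28, and the highest of these (chr7:83865366-83867200, 42.2 kb upstream of the canonical start) was 56.5 kb from the nearest i∆HSA peak. The i∆HSA list had 5 with scores from 7 to 20. Upstream of the canonical start lay 3 of the 11 peaks for iBRG1 and 5 of the 9 for i∆HSA. An i∆HSA peak among these, at chr7:84052730-84055083 with a score of 20, had a GC content of 17.2%, the lowest of any peak at the family.

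SEMA3C, a secreted cue best known from heart and vessel development, differed most in number between the lists among the chromosome 7 genes, with 7 iBRG1 and 2 i∆HSA peaks over 180 kb. Of its 200 like-length genes, 4 had at least 7 iBRG1 peaks, while 120 had at least 2 i∆HSA peaks. The shared site lay in intron 2, 35.5 kb downstream of the canonical start. There the iBRG1 peak at chr7:80511798-80513896 scored 41, the highest iBRG1 score of the family, and the i∆HSA peak at chr7:80511387-80514240 scored 80. By rank, 99.5% of the iBRG1 list and 99.0% of the i∆HSA list scored lower. The iBRG1 peak lay wholly inside the i∆HSA peak. The other 6 iBRG1 peaks scored from 3 to 9, and the i∆HSA-only peak, in intron 15, scored 7.

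SEMA3E, which differs from its relatives in that it can bind plexin D1 without a neuropilin, and SEMA3D had counts near those of genes of their length. SEMA3E had 3 peaks in each list, where the like-length means were 3.22 and 2.89. Its shared site overlapped an annotated exon and had its midpoint in intron 3 of the canonical transcript, with scores of 12 (iBRG1) and 64 (i∆HSA). At that site 91.7% and 98.5% of the lists scored lower. SEMA3D had 2 iBRG1 and 3 i∆HSA peaks, and its shared site in intron 2 scored 14 and 10, with 93.6% and 82.3% of the lists lower.

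**Figure D2:**
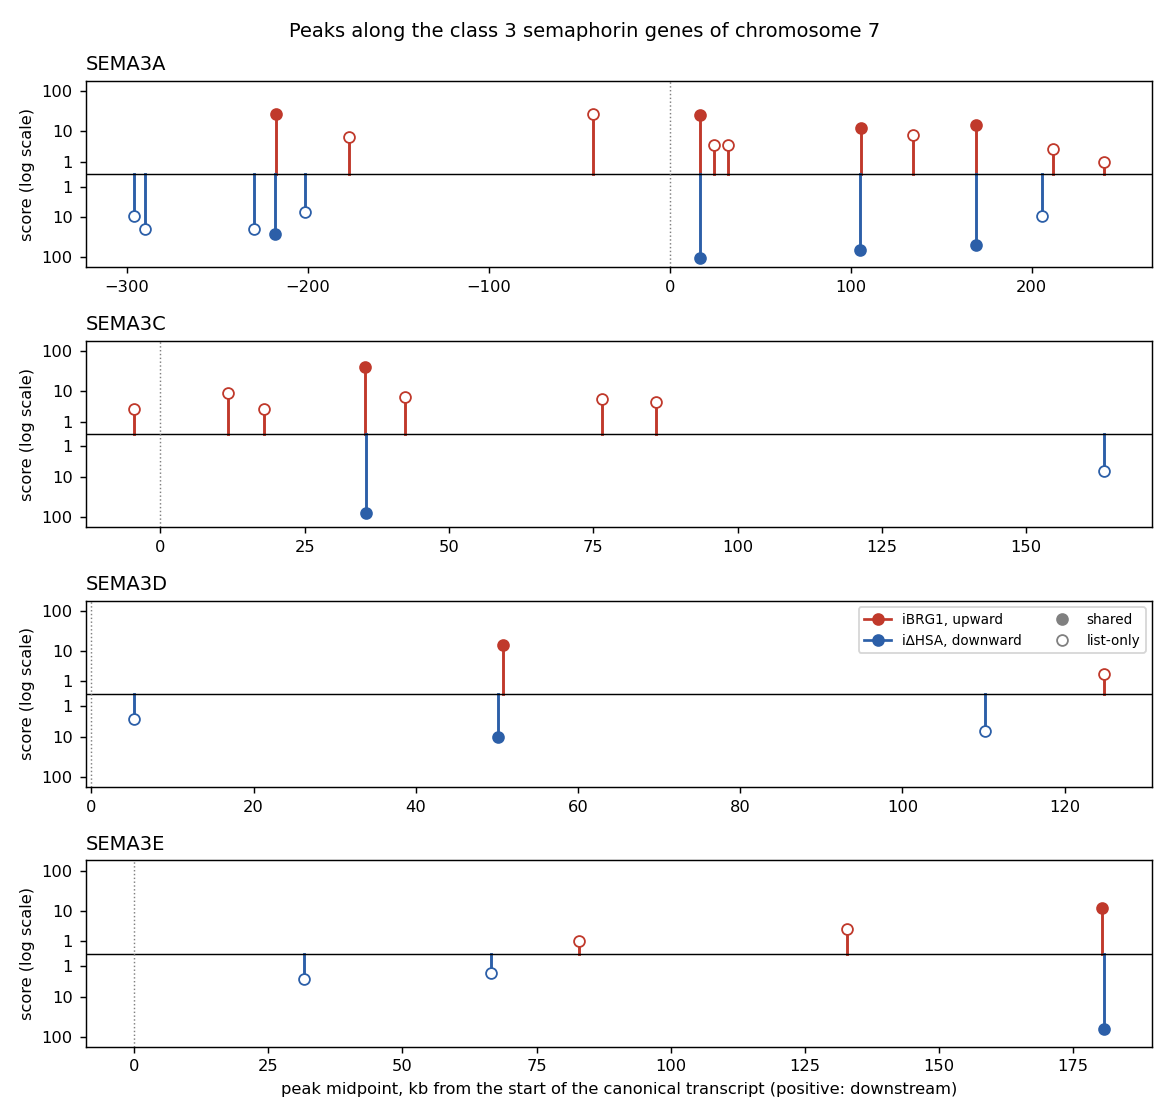
Peaks along the 4 class 3 semaphorin genes of chromosome 7, by distance of the peak midpoint from the canonical transcript start in kb (x axis) and by score on a log scale of score + 1 (y axis), with iBRG1 above the line and i∆HSA below it. Stem heights are to be read within a list, since the scale of the scores is not stated. Filled points are shared peaks and open points are list-only, and in SEMA3C, SEMA3D and SEMA3E the tallest stem of each list is the shared site, while in SEMA3A an open iBRG1 point 42.2 kb upstream reaches 28, level with the highest shared iBRG1 point.

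The remaining class 3 genes, SEMA3B, SEMA3F and SEMA3G, had 0 peaks in both lists. All 3 lie on chromosome 3 and are short, at 9.99, 34.0 and 12.1 kb. Among genes of like length, a peak was present at 27.0%, 43.5% and 28.0% in the iBRG1 list and at 31.0%, 47.5% and 41.0% in the i∆HSA list, so that the absence of a peak at each of them was the more common state.

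Class 4 semaphorins, membrane proteins with roles in immune cells and epithelia, had 8 i∆HSA peaks at 4 of the 6 genes (66.7%, where all genes had 49.5%) and 2 iBRG1 peaks at 2 genes (33.3%, against 44.7%). This difference was not tested, and it rests in part on the 5 kb flanks. Within the gene bodies alone, SEMA4A went from 2 to 0 and SEMA4B from 3 to 1 i∆HSA peaks, and the iBRG1 peaks of SEMA4B and SEMA4C went to 0. At SEMA4B the i∆HSA list had 3 peaks, of which the peak at chr15:90708627-90709592 scored 45, with 97.4% of the list lower. This peak was not shared, with the nearest iBRG1 peak 7.02 kb away, and it lay within 1 kb of the start of the small RNA pseudogene RN7SL346P. The shared site of SEMA4B lay upstream of the gene body, where the iBRG1 peak scored 4 and the i∆HSA peak scored 7. There 64.6% and 72.8% of the lists scored lower. SEMA4A and SEMA4G had 2 i∆HSA peaks each and SEMA4F had 1, with scores from 4 to 7. SEMA4C had 1 iBRG1 peak (score 4), which lay over its neighbours ANKRD23 and ANKRD39. SEMA4D, the ligand of plexin B1, had 0 peaks over 137 kb, although 77.5% (iBRG1) and 80.0% (i∆HSA) of like-length genes had one.

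SEMA5A, which carries thrombospondin repeats, had the largest difference in number between the lists at any gene of the family without a shared site. It had 5 iBRG1 and 0 i∆HSA peaks over 511 kb. The iBRG1 peaks were weak, 4 with a score of 1 and the other with a score of 3, and the i∆HSA peak nearest to any of them was 399 kb away. Among like-length genes, 72 of 200 had at least 5 iBRG1 peaks and 86.0% had an i∆HSA peak. The score filter of at least 5 left 0 peaks at SEMA5A in both lists. SEMA5B had 1 iBRG1 peak with a score of 1.

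Class 6 semaphorins, transmembrane ligands of class A plexins, had 5 i∆HSA peaks at 3 of 4 genes (75%, where all genes had 49.5%). The iBRG1 list had 2 peaks at 1 gene (25%, against 44.7%), and this difference was not tested. The 590 kb SEMA6D gene, the longest of the family, had 2 iBRG1 peaks (scores 1 and 2) and 1 i∆HSA peak (score 2), where like-length genes had means of 4.45 and 3.92. The short genes SEMA6B and SEMA6C had 2 i∆HSA peaks each. At both genes a peak lay in the 5 kb flank, outside the gene body. SEMA6A, at 131 kb, and SEMA7A, a lipid-anchored semaphorin, had 0 peaks in both lists. Of genes as long as SEMA6A, 78.0% (iBRG1) and 76.5% (i∆HSA) had a peak. For SEMA7A these shares were 35.5% and 42.0%.

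The 7 plexin genes, which encode the receptors, held 11 iBRG1 peaks at 4 genes (57.1%, where all genes had 44.7%). The i∆HSA list had 3 peaks at 3 of them (42.9%, against 49.5%). None of the plexin peaks was shared, where 20.5% and 19.6% of the whole lists were. The 20 semaphorin genes held 33 iBRG1 peaks at 9 genes (45%) and 30 i∆HSA peaks at 11 genes (55%). They had 8 shared sites, of which 7 lay at the chromosome 7 class 3 genes. The difference between receptors and ligands was not tested. PLXNA4, a 525 kb gene, had 5 iBRG1 peaks with scores from 1 to 3 and 1 i∆HSA peak with a score of 4. PLXNA2 had 2 iBRG1 peaks with scores of 8 and 2. PLXNC1, the receptor of SEMA7A, held the highest iBRG1 score among the plexins, 17 for the peak at chr12:94683126-94684035 in intron 23. Of the iBRG1 list, 95.4% scored lower, and the nearest i∆HSA peak was 13.2 kb away. PLXNB1 had 1 i∆HSA peak (score 2) and PLXNB2 had 1 iBRG1 peak (score 2), while PLXNA1 and PLXND1 had 0 in both lists.

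Both neuropilins had peaks in both lists, with scores from 1 to 6. NRP2, the co-receptor of SEMA3F, had 3 iBRG1 peaks (scores 1, 1 and 3) and 2 i∆HSA peaks (scores 2 and 6). Its shared site in intron 15 had a common stretch of 463 bp, and the scores there were 3 and 6, with 51.0% and 67.2% of the lists lower. NRP1, the co-receptor of SEMA3A, had 1 iBRG1 peak (score 2) and 2 i∆HSA peaks (scores 1 and 2). The NRP1 peaks in intron 2 lay 13.4 kb apart, so none was shared.

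Peaks at the family were mostly in introns. By a fixed order of features with promoters first, introns held 33 of 48 peaks in the iBRG1 list (68.8%, 95% Wilson interval 54.7 to 80.1) and 20 of 37 in the i∆HSA list (54.1%, 38.4 to 69.0), where the whole lists had 44.5% and 41.8%. The choice of gene bodies favours introns, since intergenic peaks of the lists cannot enter beyond 5 kb. Promoters, meaning the 1 kb on each side of any annotated transcript start of any gene, held 5 iBRG1 peaks (10.4%, 4.53 to 22.2) and 9 i∆HSA peaks (24.3%, 13.4 to 40.1). The whole lists had 19.8% and 21.7%. Over the peaks at all protein-coding autosomal genes, chosen by the same flanks, the shares were higher, at 26.9% and 29.7%, so the i∆HSA share of the family lay above the one background and below the other.

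None of these promoter peaks was shared, 0 of 5 in the iBRG1 list (95% Wilson interval 0 to 43.4%) and 0 of 9 in the i∆HSA list (0 to 29.9%). Of all promoter peaks in the lists, 30.2% and 26.3% were shared. Counted by the gene's own transcript starts, SEMA3A and SEMA3C had an iBRG1 promoter peak (6.90% of the family, where all genes had 18.4%). NRP2, PLXNB1, SEMA4F, SEMA4G and SEMA6B had an i∆HSA promoter peak (17.2%, against 21.0%). No gene of the family had one in both lists, and 7.80% of all genes did.

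The start of the canonical transcript was covered within 1 kb at 0 of 29 genes in the iBRG1 list and 4 of 29 (13.8%) in the i∆HSA list, where all genes had 11.9% and 14.3%. The 4 genes were SEMA4F (chr2:74879204-74882964, score 7), SEMA4G (chr10:102728573-102730348, score 4), SEMA6B (chr19:4558408-4559404, score 13) and PLXNB1 (chr3:48471135-48471664, score 2). The SEMA3A, SEMA3C and NRP2 promoter peaks stood at starts of other annotated transcripts, 177 kb upstream, 4.58 kb upstream and 81.8 kb downstream of the canonical start. Of the 14 promoter peaks at the family, the other 7 stood at starts of other genes, such as LRG1 beside SEMA6B, CIB1 beside SEMA4B, and TWNK and MRPL43 beside SEMA4G.

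Scores of shared and list-only peaks were set side by side. The median score was 14 (range 3 to 41) for the 9 shared and 2 (1 to 28) for the 39 list-only iBRG1 peaks. It was 49 (6 to 103) for the 9 shared and 4.5 (1 to 45) for the 28 list-only i∆HSA peaks. The groups overlapped in both lists. The medians for shared peaks of the whole lists were 5 and 8. The lower 2 shared scores in each list were those at NRP2 and SEMA4B, and the 7 chromosome 7 sites spanned 12 to 41 in the iBRG1 list and 10 to 103 in the i∆HSA list. The shared share itself was 18.8% in the iBRG1 list (95% Wilson interval 10.2 to 31.9) and 24.3% in the i∆HSA list (13.4 to 40.1), beside 20.5% and 19.6% of the lists. Without the chromosome 7 class 3 genes it was 8% and 10%.

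**Figure D3:**
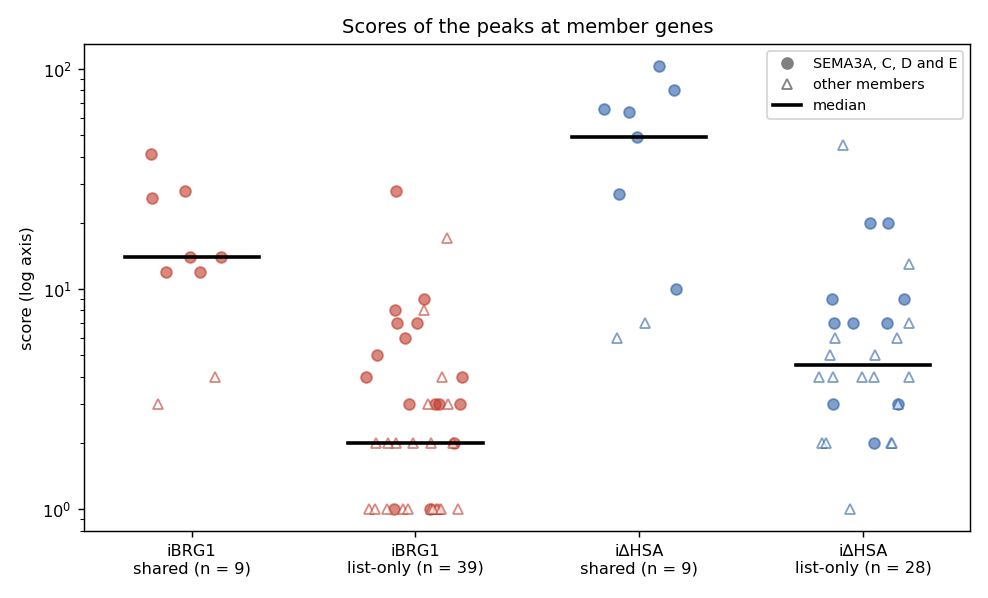
Score of each peak at the 29 genes (y axis, log axis) for shared and list-only peaks of each list, with a black line at the median. Filled circles are peaks at SEMA3A, SEMA3C, SEMA3D and SEMA3E and open triangles are peaks at the other genes. The shared medians of 14 and 49 lie above the list-only medians of 2 and 4.5, and the 2 lowest shared points in each list are triangles.

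The chromosome 7 sites also differed from the others in base composition. Peaks at the 4 genes had a median GC content of 34.3% (iBRG1, range 26.4 to 37.4) and 32.8% (i∆HSA, 17.2 to 39.0). Peaks at the other 25 genes had medians of 44.2% and 47.8%, and the whole lists had 38.6% and 38.2%. On chromosome 7 as a whole the medians were 38.04% and 37.60%. Peaks at the 4 genes were also wider, with median widths of 1817 and 1818 bp, while peaks at the other genes had 771 and 981.5 bp. Both groups departed from the median widths of the whole lists, 1321 and 1318 bp. Chromosome 7 had 1326 and 1315 bp. The part of base composition in the results was not tested.

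The genes through which semaphorins signal were counted next, from a list of 30 that holds co-receptors, the collapsin response mediators, MICAL enzymes and other signalling proteins. Peaks were found at 17 (56.7%) in the iBRG1 list, at 22 (73.3%) in the i∆HSA list and at 14 in both, where all genes had 44.7%, 49.5% and 30.4%. These are long genes, with a median of 115 kb beside 69.1 kb for the family and 27.6 kb for all genes. Their own promoters held a peak at 13 genes (43.3%) in the iBRG1 list, 12 (40.0%) in the i∆HSA list and 7 in both (23.3%), where all genes had 18.4%, 21.0% and 7.80%. These 7 were CFL1, which severs actin filaments, the kinase FYN, the hepatocyte growth factor receptor MET, the adhesion protein NRCAM, and DPYSL2, FARP2 and MICAL3. In the family itself 2, 5 and 0 genes had such a peak. The difference was not tested.

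Other guidance systems were counted in the same way. Eph receptors and ephrins had peaks at 9 (iBRG1) and 7 (i∆HSA) of 21 genes (42.9% and 33.3%), and Slit, Robo, netrin and netrin receptor genes at 9 and 16 of 19 (47.4% and 84.2%), beside the 44.7% and 49.5% of all genes. Their median lengths were 40.1 and 222 kb, and neither list was set beside genes of like length. ROBO1 alone, at 1171 kb, held 20 of the 41 peaks of the latter genes in the iBRG1 list and 21 of 52 in the i∆HSA list. A shared peak was present at 3 of 21 Eph and ephrin genes and at 4 of 19 Slit, Robo and netrin genes. It was present at 6 of the 29 semaphorin, plexin and neuropilin genes (20.7%), beside 16.5% of all genes. The latter share is not matched for length. Summed over the 29 genes, the mean number of shared peaks at like-length genes was 9.8 (iBRG1) and 9.9 (i∆HSA), beside the 9 counted in each list.

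**Figure D4:**
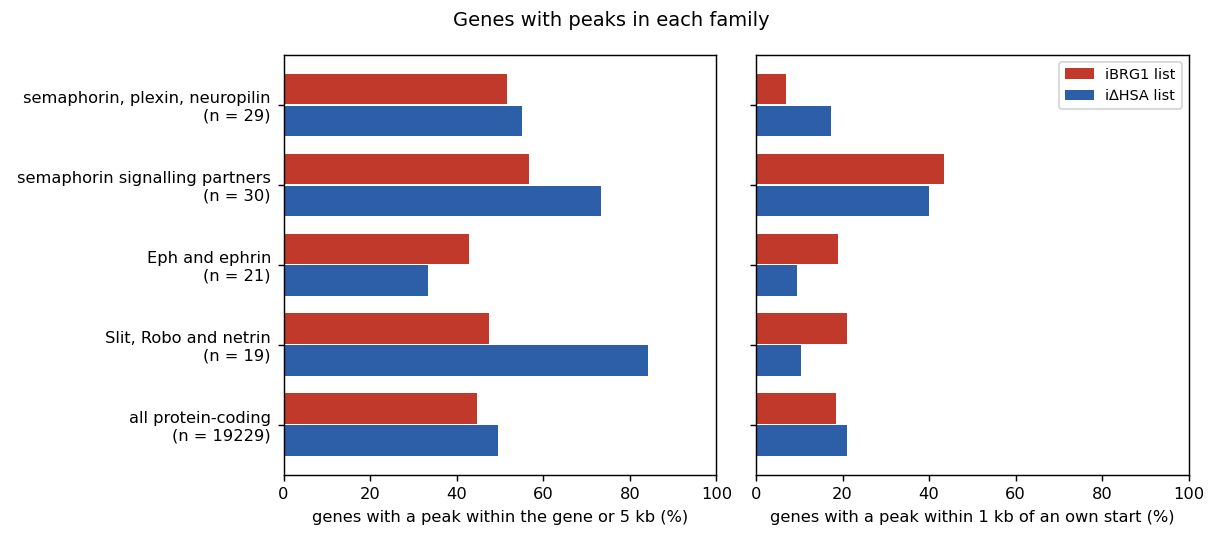
Percent of genes (x axis) with a peak in the gene or within 5 kb (left) and with a peak within 1 kb of one of their own transcript starts (right), for the 29 genes, 3 other gene lists and all protein-coding autosomal genes. Red bars are the iBRG1 list and blue bars the i∆HSA list. The 29 genes lie near all genes on the left, at 51.7% and 55.2%, and have the lowest iBRG1 share on the right, at 6.90%.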

How the data were processed

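CUT&RUN with anti-V5 was performed on 2 iBRG1 and 2 i∆HSA samples, grouped by sample title. By the published methods, reads were trimmed (Cutadapt), aligned (Bowtie2) and de-duplicated (Picard) by the authors, who then called peaks with MACS2 (2.2 per the submitters' processing notes) and took out those found in negative controls. The build named in those notes is hg19, and 0 peaks ended beyond a GRCh37 chromosome. The deposited score is the authors' value per peak. Whether replicates were pooled, and the depth reached, are unknown. Scores under 5 are present in both lists although the methods name a minimum of 5.

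Genes and transcripts came from GENCODE release 44 on GRCh37, sequence from GRCh37. Like-length genes were the 200 non-member protein-coding autosomal genes nearest in log length. Features followed the order promoter (1 kb each side of any transcript start), 5' UTR, 3' UTR, exon, intron, downstream (300 bp) and distal intergenic. The sequence of 1 shared site is not reported here. Motifs were searched within 100 bp of peak midpoints. The ETS, RUNX and NR5A patterns were found at 0, 3 and 0 iBRG1 and at 0, 1 and 0 i∆HSA peaks of the family. In the whole lists, ETS stood at 0.743% (iBRG1) and 0.926% (i∆HSA) of peaks. RUNX stood at 4.14% and 3.62%, and NR5A at 0.227% and 0.213%. Intervals (95%) cover counting error only. Every gene of the family is named. Full values are given for genes with peaks in both lists, among the 5 with the most peaks in a list, or with a promoter peak, and other genes by range and counts. Members and lists were chosen with earlier results of these data known. Overlap counts were tested on simulated data. Python 3.11.15, numpy 2.4.6, scipy 1.17.1 and matplotlib 3.10.9 were used.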

Additional observations from a re-analysis of the deposited data

How the results depend on the processing

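No paired analysis was possible because the files hold no values for single replicates, so neither a replicate block nor the removal of single replicates was run. Leaving out genes was chosen after seeing the data. With scores of at least 5, members with a peak came to 6 (iBRG1), member peaks to 16 (iBRG1) and 23 (i∆HSA), their ratio turned to 0.696 from 1.30, genes with an own promoter peak came to 1 and 2, the shared share of iBRG1 peaks was 43.8%, and the i∆HSA ratio to like-length genes turned to 1.20. At or above the list median score that ratio was 1.10 and i∆HSA promoter genes were 3. The ratio of iBRG1 to i∆HSA member peaks did not turn there, at 1.21. With the gene body only, the iBRG1 ratio to like-length genes turned to 0.975 and 1 iBRG1 promoter gene was left. A promoter window of 3 kb gave 8 i∆HSA promoter genes and 18.8% of iBRG1 and 35.1% of i∆HSA peaks at promoters. With protein-coding transcripts only, 1 iBRG1 promoter gene and 4.17% of iBRG1 peaks at promoters were left. Without SEMA3A the iBRG1 ratio turned to 0.888 and 1 promoter gene was left. Without the 4 chromosome 7 class 3 genes it turned to 0.738, iBRG1 promoter genes were 0, member peaks 25 and 20, genes with a shared peak 2, shared shares 8% and 10%, and the i∆HSA promoter share 45%. Fewer peaks or genes enter by construction under the score filters and the left-out genes, and otherwise the cause was not tested. Several alternatives, such as another overlap for sharing, cannot change a count of peaks, so an equal count under them shows no stability. Depth is unknown, so a gene without a peak may lie below what these libraries could detect.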
